A study of Mus musculus with 15 samples.

Results

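The genes described here are nucleolar ribosome biogenesis factors, the proteins that transcribe, modify, cut and fold ribosomal RNA (rRNA) on its way into ribosomes. Members were taken from a list of 47 gene symbols, through probe sets whose annotation gives exactly 1 symbol. Of these, 46 were on the arrays, read by 90 probe sets, among 15964 genes in all. Where a gene had several probe sets, the one brightest on average across the 5 treatments was read. The 35 members that reached 4 times the median of their chip type in any treatment are reported, and 6337 of all genes did so.

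RNA came from A.E7 cells, a single mouse CD4 T helper clone, so every group carries the same genetic background. Cells were mock treated, stimulated with anti-TCR alone (antibody to the T cell receptor, labelled anergic in the array titles), or stimulated with anti-TCR together with inhibitors. CSA was cyclosporin A, an inhibitor of calcineurin, PKCi was a protein kinase C inhibitor that the labels do not name further, and Combo was rapamycin, PD98059 and SB203580 given together, which block mTOR, MEK and p38. Each treatment's RNA was a pool of the 2, 4 and 6 h time points, read once on each of 3 chip types (A, B and C), which gave 15 arrays. Doses, the source of the antibody and the number of cultures in a pool are not given in the sources used here. The drugs of Combo were not given singly, so their parts cannot be told apart. With 1 array per treatment and chip type, differences have neither a replicate check nor a test, and precision is limited by how few arrays there are. In RNA of whole cultures, fewer cells of a type and less RNA per cell cannot be told apart.

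Ribosomes are assembled in the nucleolus, where RNA polymerase I transcribes a long precursor that holds most of the rRNAs. Small nucleolar ribonucleoproteins (snoRNPs) of the box C/D class guide methylation of the precursor and those of the box H/ACA class guide its pseudouridylation, while separate sets of factors build the small and the large subunit. T cells that leave the resting state enlarge their nucleoli and make more ribosomes, and mTOR and the factor Myc are known to promote this.

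Below, rose and fell mark a gene whose values lay at least 2-fold apart with the brighter value at 4 times the chip median or more (204.4 on chip A, 278 on B and 220 on C). Such a gene is called measured in that comparison when its brighter value reached this level. Values are array intensities on a linear scale as deposited, and the chip median (51.1, 69.5 and 55) served as a floor for log2 ratios. Genes read on more than 1 chip type gave a technical SD of the log2 ratio. It was 0.75 for anti-TCR against mock, and against anti-TCR it was 0.48 with CSA, 0.71 with PKCi and 0.55 with Combo. This SD covers arrays and probes and not cultures. Of the reported members 25 were read on chip A, 6 on B and 4 on C. Their brightest value lay between 4.25 and 53.9 times the chip median, and 17 stayed under 10 times it, so many ratios rest on modest signal. Just inside the level lay Ebna1bp2 (4.25 times) and Nolc1 (4.4 times), and just outside Imp4 (3.97 times) and Ppan (3.78 times).

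The labelled cell type was checked on marker genes. Of 11 T cell markers on the arrays 10 reached the level, Cd4 among them (608 with anti-TCR). This held for 0 of 7 B cell markers, 0 of 2 CD8 markers, 0 of 4 erythroid markers and 1 of 12 macrophage and dendritic cell markers, Cd14. The summed T cell marker values were 13369 with mock, 11743 with anti-TCR, 9330 with CSA, 8750 with PKCi and 11332 with Combo. The summed macrophage and dendritic cell marker values lay between 639 (Combo) and 903 (CSA), and those of B cells between 245 (PKCi) and 320 (anti-TCR). The brightest probe sets of chip A were dimmer with PKCi, with a 99th percentile of 1864 against 2458 with anti-TCR and 2717 with mock. Their part in the results below was not tested.

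With anti-TCR alone the nucleolar factors were higher than with mock. Of 34 measured members 12 rose and 0 fell; 11.4% of all 5803 genes measured rose and 13.9% fell. The median log2 ratio was 0.74 over the members and -0.08 over all genes, and 32 of the 34 were higher at any size, as were 45.5% of all genes. Of these members 11 reached the level with anti-TCR and not with mock, which fixes their direction. Among the 23 that reached it on both arrays 6 rose, 21 were higher at any size and the median was 0.56. Of all 4122 such genes 272 rose, 46.5% were higher and the median was -0.04. Over all 46 members with no limit on level, 40 were higher, 2 lower and 4 at the floor on both arrays (median 0.61; all genes 0.00).

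Anti-TCR was the treatment with the highest value in 25 of the 35 reported members, against 23.2% of all genes that reached the level. Mock and PKCi were highest in 0 members, against 27.0% and 20.5% of all genes that reached the level. PKCi was the lowest treatment in 21 and mock in 9; over all genes these shares were 20.4% and 20.7%.

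**Figure D1:**
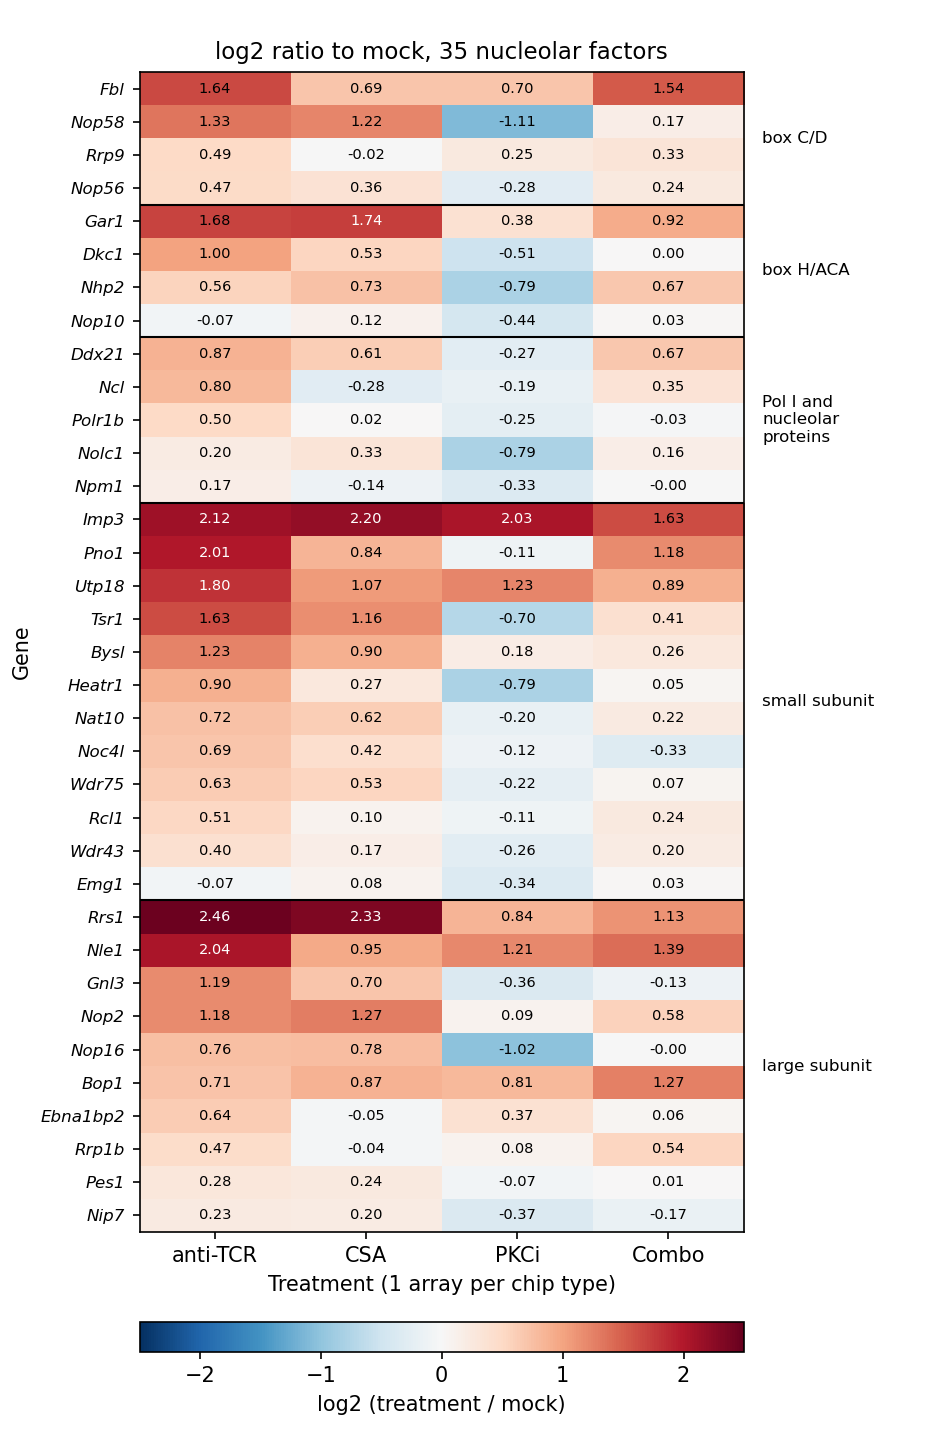
Heat map of the log2 ratio to mock (colour and printed value) of the 35 reported members in rows, grouped by role, for anti-TCR alone and the 3 inhibitor treatments in columns, 1 array each. The anti-TCR column is red for all members but Nop10 and Emg1 (both -0.07), and the PKCi column is mostly pale or blue, down to -1.11 for Nop58.

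The box C/D snoRNP proteins were all higher with anti-TCR, 2 of 4 past 2-fold, beside 11.4% of all genes measured. Fibrillarin (Fbl), the methyltransferase of the particle, read 222 with mock, 692 with anti-TCR, 358 with CSA, 360 with PKCi and 644 with Combo. It rose 3.12-fold, and only Combo among the inhibitor treatments left it near the anti-TCR value. The core protein Nop58, on an f-suffixed probe set (a suffix that marks sequence shared with related transcripts), read 217, 547, 505, 101 and 244 in the same order of treatments. It rose 2.52-fold, and its PKCi value lay below mock. Rrp9, a protein of the U3 snoRNP that starts the cutting of the precursor, read 765, 1077, 755, 907 and 958 on an r-suffixed probe set. A second probe set on chip A, without a suffix, gave 238, 480, 350, 383 and 504, a log2 ratio of 1.01 against 0.49 on the first. Nop56, the partner of Nop58, was 0.47 higher on the log2 scale.

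Among the box H/ACA proteins, beside 11.4% of all genes, 1 of 4 rose. This was Gar1, which read 765 with mock, 2458 with anti-TCR, 2547 with CSA, 993 with PKCi and 1447 with Combo, a rise of 3.21-fold. CSA did not lower it, and PKCi took it near its mock value. Dyskerin (Dkc1), the pseudouridine synthase of the particle, read 251, 501, 364, 177 and 252 in the same order and lay just short of 2-fold (log2 ratio 0.997). Nhp2 read 312, 460, 518, 180 and 496, so that PKCi alone was below mock. Nop10, the smallest subunit, was level with anti-TCR (-0.07).

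RNA polymerase I and the abundant multifunctional nucleolar proteins gave 0 rises among 5. With 11.4% of all genes rising, 5 members are too few to set this apart. Nucleolin (Ncl), which binds nascent rRNA, read 839 with mock, 1466 with anti-TCR, 693 with CSA, 737 with PKCi and 1070 with Combo. All its inhibitor values lay below that of anti-TCR, and those of CSA and PKCi below mock. The helicase Ddx21 read 187, 343, 287, 156 and 297; its second probe set, on chip B, read 91.1, 242, 148, 130 and 291, with a log2 ratio of 1.41 against 0.87. Nucleophosmin (Npm1), a nucleolar chaperone, read 1413, 1589, 1285, 1120 and 1408, a narrow range with PKCi lowest. Log2 ratios of anti-TCR to mock were 0.50 for Polr1b, the second largest subunit of RNA polymerase I (f-suffixed), and 0.20 for the snoRNP chaperone Nolc1.

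Small subunit factors gave 5 rises among 12, beside 11.4% of all genes. Imp3, a protein that holds U3 snoRNA on the precursor, read 393 with mock, 1704 with anti-TCR, 1810 with CSA, 1608 with PKCi and 1216 with Combo. It rose 4.34-fold and stayed high in every inhibitor treatment. Pno1, which guides the last cut of the small subunit rRNA, read 289, 1166, 519, 269 and 657, a rise of 4.03-fold that was absent with PKCi. Utp18, of the small subunit processome, read 156, 546, 329, 366 and 290 (3.49-fold). A dimmer probe set of Utp18 on the same chip, under the level, read 104, 110, 118, 108 and 85.2, a log2 ratio of 0.07.

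Tsr1, which acts late in small subunit assembly, read 206 with mock, 637 with anti-TCR, 461 with CSA, 126 with PKCi and 273 with Combo (3.09-fold). Bystin (Bysl), on an s-suffixed probe set, read 160, 376, 298, 182 and 192 (2.35-fold). In both genes CSA kept more of the signal than PKCi or Combo. The early factor Heatr1 read 312, 580, 375, 180 and 322 and was 0.90 higher on the log2 scale, with PKCi below mock. Noc4l read 338, 545, 452, 311 and 270, with the Combo value the lowest.

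Of the other small subunit members, the rRNA acetyltransferase Nat10 had a log2 ratio of 0.72 (1.21 on a second probe set), Wdr75 0.63, Rcl1 0.51, Wdr43 0.40 and the methyltransferase Emg1 -0.07. The probe sets of Wdr43 disagreed. The brighter one read 272 with mock and 360 with anti-TCR, and a probe set on chip C read 47.3 and 399, a log2 ratio of 2.86 against the floor.

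Large subunit factors gave 4 rises among 9 measured, beside 11.4% of all genes. Rrs1, which recruits the small 5S-containing particle to the growing subunit, read 125 with mock, 687 with anti-TCR, 630 with CSA, 224 with PKCi and 274 with Combo. Its rise of 5.49-fold was the largest among the members, and CSA left it nearly whole. Nle1 (notchless) read 95.8, 395, 185, 221 and 252 and rose 4.12-fold. It reached the level with anti-TCR and in no other treatment. Nucleostemin (Gnl3), a nucleolar GTPase of growing cells, read 169, 386, 275, 132 and 154 (2.28-fold), with PKCi and Combo below mock.

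Nop2, an rRNA methyltransferase, read 129 with mock, 292 with anti-TCR, 312 with CSA, 137 with PKCi and 193 with Combo (2.26-fold). Nop16, on an f-suffixed probe set, read 275, 466, 471, 135 and 274, with PKCi lowest again. A second probe set of Nop16, on chip C and without a suffix, spanned a narrower range of 151 (PKCi) to 230 (CSA). Pes1, of the complex with Bop1 and Wdr12 that processes large subunit rRNA, read 2442, 2963, 2879, 2332 and 2467, a narrow range. Bop1 read 123, 201, 225, 216 and 296, and was highest with Combo. Log2 ratios of anti-TCR to mock were 0.64 for Ebna1bp2 (r-suffixed), 0.47 for Rrp1b and 0.23 for Nip7. Dimmer probe sets of Ebna1bp2, all under the level, gave -0.12, -0.11 and 0.46.

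**Figure D2:**
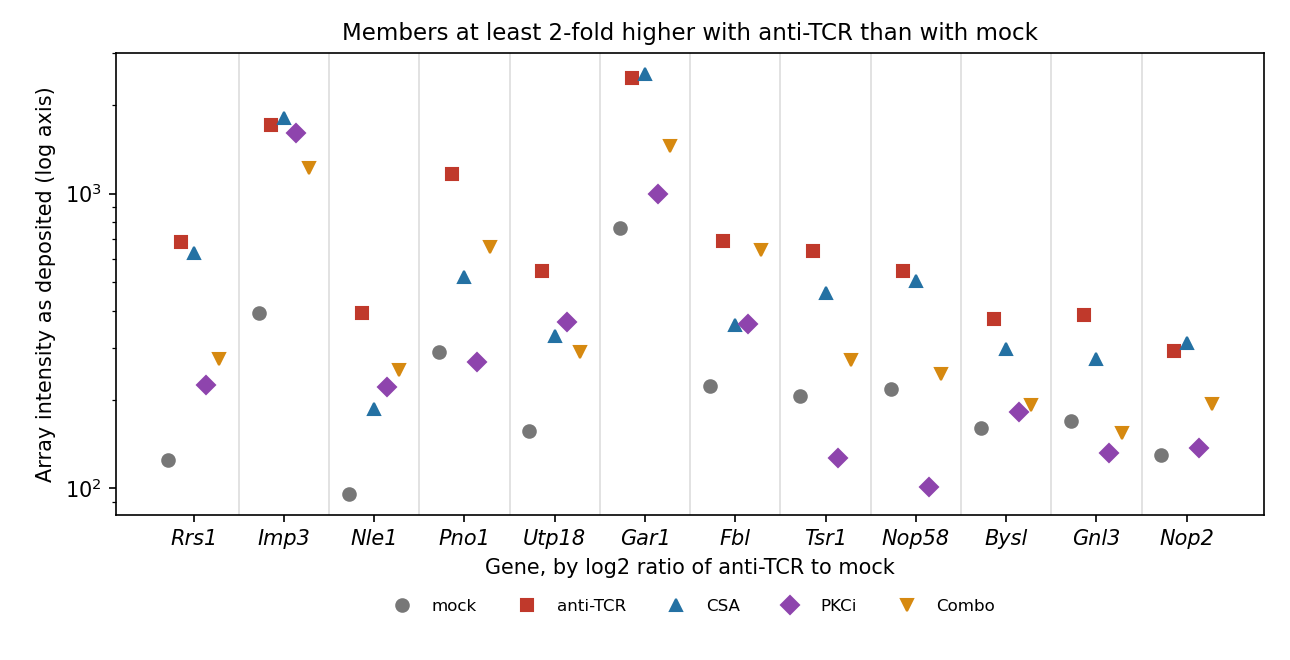
Array intensity (log axis) of the 12 members that rose with anti-TCR, in order of their log2 ratio from Rrs1 (2.46) to Nop2 (1.18), with 1 point for each of the 5 treatments. The anti-TCR squares lie above the mock circles in every gene, and the PKCi diamonds lie at or below mock for Pno1, Tsr1, Nop58 and Gnl3.

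Of the 12 rises, 8 exceeded 2 technical SDs (log2 ratio 1.51), namely Fbl, Rrs1, Tsr1, Gar1, Imp3, Utp18, Nle1 and Pno1; 6.19% of all measured genes did so in this direction. By chip type the median log2 ratio was 0.84 over 24 members on A, 0.81 over 6 on B and 0.48 over 4 on C, against -0.14, -0.09 and -0.01 for all genes there. Further probe sets that reached the level were present for 7 members. All 7 were higher with anti-TCR than with mock, 4 of them at least 2-fold (Wdr43, Ddx21, Nat10 and Rrp9), and all 7 were lower with PKCi than with anti-TCR. Of all genes measured 45.5% were higher and 48.4% lower in these comparisons. Only Rrp9 reached the level with mock too. Wdr43, Nat10, Imp4 and Rrp1b reached it with anti-TCR and not mock, which fixes that direction, and Ddx21 and Nop16 with neither. With PKCi only Rrp9 and Wdr43 reached it. Against anti-TCR 5 of the 7 were lower with CSA and 3 with Combo, so that most of them were higher with Combo.

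Of the 46 members 11 stayed under the level in every treatment. Imp4 read 190 with mock, 276 with anti-TCR, 264 with CSA, 140 with PKCi and 193 with Combo, Ppan read 56.9, 193, 127, 67.8 and 159, and Wdr12 read 181, 251, 230, 121 and 132. A further probe set of Imp4 on chip A, with a lower mean, did reach the level and is among the 7 above. The remaining 8 were Nop14, Utp14a, Wdr74, Nob1, Rrp12, Surf6, Ftsj3 and Noc2l, the last 2 below the floor throughout. Mrto4 was not analysed here, since its symbol stands beside others in the annotation.

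Promoter sequence was searched for CACGTG, the E box that Myc and related factors bind, which reads the same on both strands. RefSeq (GRCm38.p6) gave windows of 300 bases, 250 before and 50 after a gene's start, for 42 of the 47 listed members; Fbl, Rrs1, Npm1, Bop1 and Rrp12 had none. The motif was in 8 of the 42 (19.0%), in 8.09% of all 27025 genes with such a window and in 12.1% of the 5172 genes that reached the level. Of the 12 members that rose 10 had a window, and 5 of these held it, against 2 of 21 measured members that did not rise (9.52%). The remaining match, in Imp4, belongs to a member under the level. Over all genes the share was 13.4% of 530 that rose and 11.9% of 4199 measured genes that did not. The members were few, and a match describes letters and not a site in use. The windows around each match are shown so that the motif's surroundings can be compared. The motif is in capitals; the first 5 are of members that rose, the next 2 of measured members that did not, and the last is of Imp4:
Nop2: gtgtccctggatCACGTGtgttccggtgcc
Tsr1: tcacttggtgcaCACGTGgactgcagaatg
Utp18: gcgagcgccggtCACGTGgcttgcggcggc
Nle1: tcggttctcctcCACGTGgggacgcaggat
Pno1: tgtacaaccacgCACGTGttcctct
Wdr43: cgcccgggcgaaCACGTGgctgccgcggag
Pes1: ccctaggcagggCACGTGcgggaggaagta
Imp4: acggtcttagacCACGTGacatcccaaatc

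These stretches lie at chr6:125131811-125131840 (Nop2, plus strand), chr11:74898092-74898121 (Tsr1, plus), chr11:93885769-93885798 (Utp18, minus), chr11:82908355-82908384 (Nle1, minus) and chr11:17211540-17211564 (Pno1, minus). Those of Wdr43, Pes1 and Imp4 lie at chr17:71616220-71616249, chr11:3963965-3963994 and chr1:34439696-34439725, all on the plus strand. The motif starts 60, 20 and 121 bases before the annotated start in Nop2, Utp18 and Imp4. It starts 24, 23, 37, 17 and 2 bases after it in Tsr1, Nle1, Pno1, Wdr43 and Pes1. Beyond the motif the flanks as a whole differ between the genes, though Tsr1, Utp18, Nle1 and Wdr43 share a g directly after it. The Pno1 stretch is shorter because its window ends there.

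With the PKC inhibitor the nucleolar factors were lower than with anti-TCR alone. Of 35 measured members 13 fell and 0 rose, while 9.75% of all 5793 genes measured fell and 14.3% rose. The median log2 ratio was -0.85 over the members and 0.03 over all genes; 34 of 35 members were lower at any size, against 48.4% of all genes. Bop1 alone was higher (0.10), as were 51.6% of all genes. This comparison uses the same anti-TCR array as the one before, so a high value on it would move both. Of the 35, 16 reached the level with anti-TCR and not with PKCi. Among the 18 that reached it on both arrays, 3 fell, all 18 were lower and the median was -0.64. Of all 4125 such genes 239 fell, 50.6% were lower and the median was -0.01.

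Falls were counted in every role, beside 9.75% of all genes. They numbered 1 of 4 box C/D proteins, 3 of 4 box H/ACA proteins and 1 of 5 RNA polymerase I and multifunctional proteins. Small subunit factors gave 4 of 12 and large subunit factors 4 of 10. Of the 13, only Rrs1, Gar1 and Pno1 also reached the level with PKCi. For the others the level fixed the direction, and these include the single falls of the box C/D and RNA polymerase I groups. The largest falls were Nop58 (5.43-fold, f-suffixed), Tsr1 (5.04-fold) and Pno1 (4.34-fold). Nop16 (f-suffixed), Heatr1, Rrs1, Gnl3 and Dkc1 fell between 3.44-fold and 2.84-fold, and these 8 genes exceeded 2 technical SDs (1.43 on the log2 scale), which 5.52% of all genes did in this direction. Nhp2, Gar1, Ddx21, Nop2 and Bysl (s-suffixed) fell between 2.55-fold and 2.07-fold. Nucleolin and Nolc1 were both 1.99-fold lower, just short of the rule. A dimmer nucleolin probe set on chip C, under the level, read 127 with anti-TCR and 169 with PKCi. With all nucleolin probe sets averaged the log2 ratio was -0.19.

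Imp3 (log2 ratio -0.08), Rrp9 (-0.25), Emg1 (-0.27) and Ebna1bp2 (-0.27) were nearest to their anti-TCR values. By chip type the median was -0.94 over 25 members on A, -0.96 over 6 on B and -0.31 over 4 on C, with 0.09, 0.01 and -0.04 for all genes. The 4 members on chip C, Pes1, Rrp9, Rrp1b and Ebna1bp2, gave 0 falls.

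**Figure D3:**
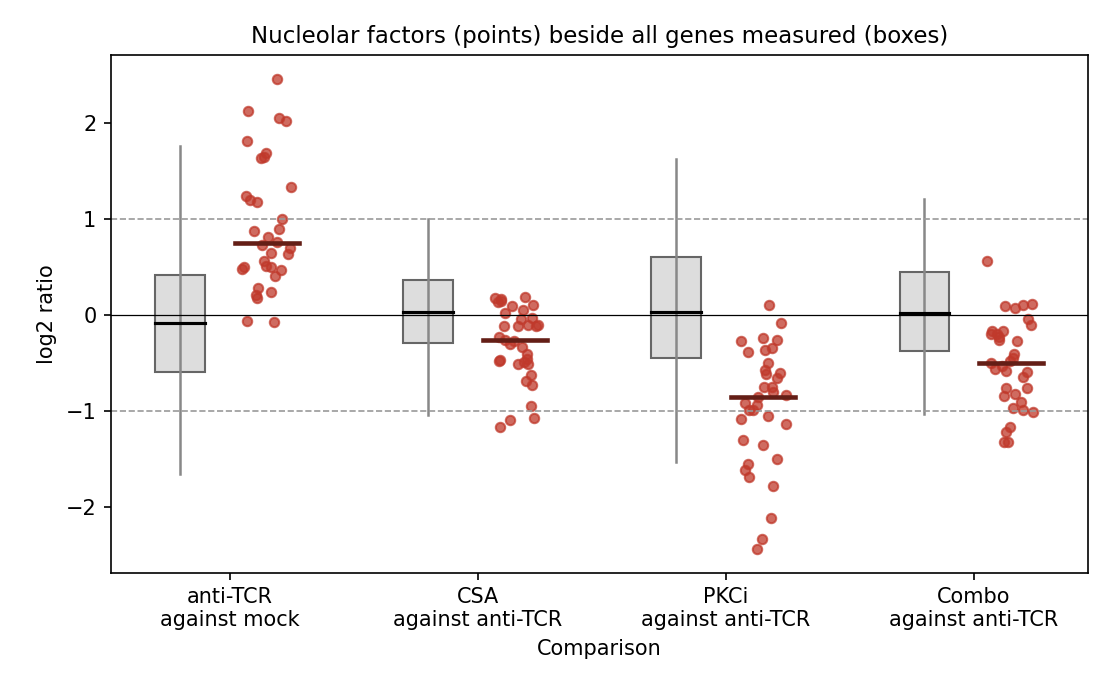
Log2 ratios of the measured nucleolar factors (red points, dark bar at their median) beside all genes measured (box from the 25th to the 75th percentile with the median, line from the 5th to the 95th) in 4 comparisons; dashed lines mark 2-fold. Member medians are 0.74, -0.26, -0.85 and -0.51 from left to right, and those of all genes lie between -0.08 and 0.03.

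With cyclosporin A the share of members that fell was near that of all genes. Of 35 measured members 3 fell and 0 rose, against 5.34% and 4.84% of all 5453 genes measured. Pno1 fell 2.25-fold (1166 to 519), Nle1 2.13-fold (395 to 185) and nucleolin 2.11-fold (1466 to 693), and all exceeded 2 technical SDs (0.96), as did 5.68% of all genes. The nucleolin call was lost under quantile normalization (log2 ratio -0.95) and with all its probe sets averaged (-0.26), where a dimmer probe set on chip C read 127 with anti-TCR and 156 with CSA. Of the 35 members 2, Nle1 and Ebna1bp2, reached the level with anti-TCR and not with CSA. Among the 32 at it on both arrays 2 fell, 24 were lower and the median was -0.24. Of all 4345 such genes 125 fell, 48.8% were lower and the median was 0.01. Fibrillarin was 1.93-fold lower (log2 ratio -0.95). The median was -0.26 over the members and 0.03 over all genes, and 26 of 35 were lower and 9 higher at any size, against 48.0% and 51.9% of all genes. Gar1, Imp3, Nop2, Nop16, Nop10, Nhp2, Nolc1, Emg1 and Bop1 were higher than with anti-TCR by 0.02 to 0.19 on the log2 scale, which is less than the technical SD. The box H/ACA proteins had a median of 0.11 and the box C/D proteins one of -0.31, over 4 genes each.

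With Combo 5 of 35 measured members fell and 0 rose, against 5.46% and 7.95% of all 5621 genes measured. The 5 were Gnl3 (2.51-fold), Rrs1 (log2 ratio -1.32), Tsr1 (2.33-fold), Nop58 (2.25-fold, f-suffixed) and Noc4l (2.02-fold), and all but Noc4l exceeded 2 technical SDs (1.11), as did 4.31% of all genes in this direction. The Noc4l call was lost with the arrays scaled to a common median (-0.90). The median log2 ratio was -0.51 over the members and 0.02 over all genes; 30 of 35 members were lower and 5 higher at any size, against 48.6% and 51.3% of all genes. Of these 8 reached the level with anti-TCR and not with Combo, which fixes them as lower. Among the 26 at it on both arrays 4 fell, 22 were lower and the median was -0.43. Of all 4317 such genes 159 fell, 51.1% were lower and the median was -0.01. Dkc1 (1.99-fold) and Bysl (1.96-fold, s-suffixed) lay just short of the rule. Fibrillarin (-0.10), Nolc1 (-0.04), Rrp1b (0.07), Emg1 (0.09), Nop10 (0.10), Nhp2 (0.11) and Bop1 (0.56) lay at or above about their anti-TCR values.

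For the 12 members that rose, the share of the log2 induction left under each inhibitor treatment was computed, where 0% is the mock value and 100% the anti-TCR value. Both the choice of genes and the 100% value rest on the anti-TCR array, so a high reading there would move shares toward 0%. Of the 12, 6 also reached the level with mock, and Nop2, Rrs1, Gnl3, Bysl, Utp18 and Nle1 did not. The median was 72.0% with CSA (42.0 to 108), 18.5% with PKCi (-83.2 to 96.1) and 49.4% with Combo (-11.3 to 93.7). Over all 659 genes that rose the medians were 66.9%, 28.7% and 58.1%, so the members' shares lay in the same order. Under 50% was left in 3, 9 and 7 of the 12, against 34.4%, 64.6% and 40.5% of all genes that rose.

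The share left under each inhibitor treatment varied between the single genes, and these differences were not tested. Rrs1 kept 95% with CSA, 34.3% with PKCi and 46.1% with Combo, and Nop58 kept 91.4%, -83.2% and 12.4%. Gar1 (103%, 22.3% and 54.6%) and Nop2 (108%, 7.28% and 49.4%) had the same order. Fibrillarin instead kept 42.1% with CSA, 42.6% with PKCi and 93.7% with Combo. Pno1 kept 42.0%, -5.25% and 58.8%, and Nle1 46.5%, 59.0% and 68.3%. Nle1 was under the level in every inhibitor treatment. Its PKCi and CSA values were 0.26 apart on the log2 scale, less than the technical SD of 0.54. Imp3 kept at least 77.0% in each treatment.

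**Figure D4:**
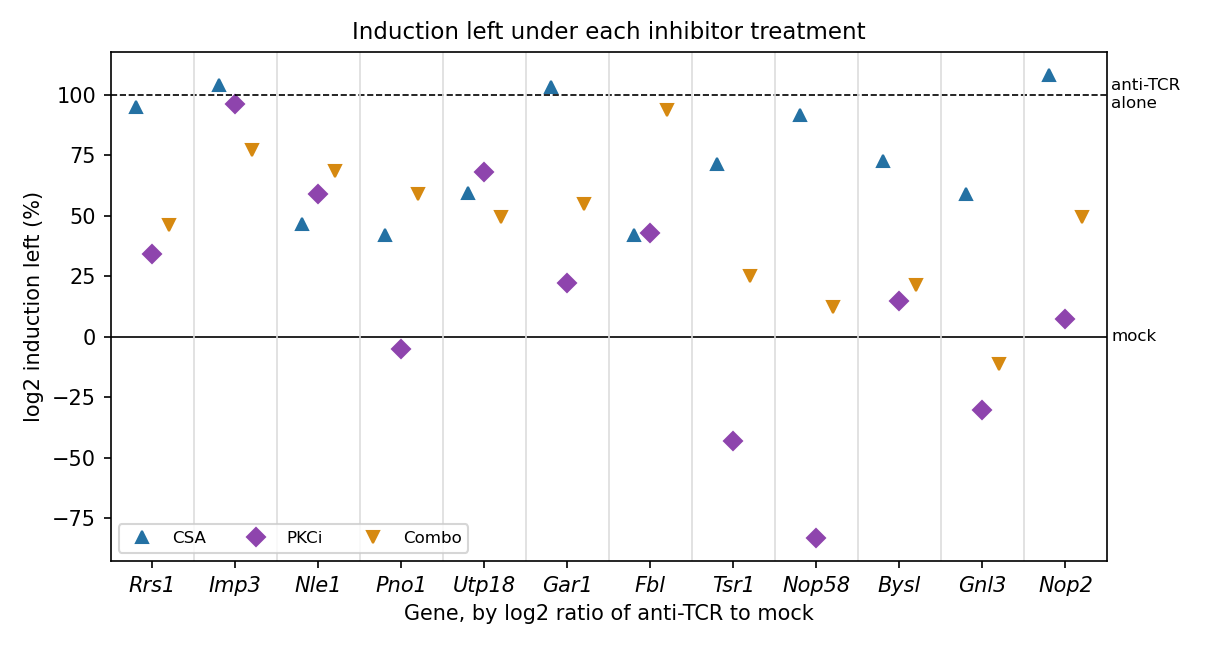
Share of the log2 induction left (vertical axis, %) for the 12 members that rose, with CSA (triangles), PKCi (diamonds) and Combo (inverted triangles); the solid line is mock and the dashed line anti-TCR alone. Diamonds lie below 0 for Pno1, Tsr1, Nop58 and Gnl3, and triangles lie above 40% in every gene.

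Set against mock, a comparison that does not use the anti-TCR arrays, the inhibitor treatments differed. With CSA 7 of 33 measured members rose and 0 fell (8.65% and 7.79% of all genes), 29 were higher at any size (44.5% of all genes) and the median log2 ratio was 0.53 (all genes -0.07). With Combo 5 of 27 rose and 0 fell (8.39% and 5.99% of all genes), 22 were higher (46.1% of all genes) and the median was 0.24 (all genes -0.06). With PKCi 2 of 26 rose, Imp3 and Utp18, and 2 fell, Nop58 and Nop16 (both f-suffixed); the shares over all genes were 6.90% and 3.55%. Here 18 of 26 were below mock, against 53.9% of all genes, and the median was -0.19 (all genes -0.05). These 3 comparisons share the mock arrays. Here too members passed the level on 1 array alone: 10 with CSA and not mock, 4 with Combo and not mock, 3 with PKCi and not mock and 7 the reverse. Among those at the level on both arrays 4 of 23 rose with CSA (19 higher, median 0.27) and 3 of 23 with Combo (18 higher, 0.22). With PKCi 1 of 16 rose and 0 fell (11 lower, -0.11). Of all such genes 197 of 4338 rose with CSA (44.2% higher, -0.06) and 181 of 4419 with Combo (44.7% higher, -0.06). With PKCi 167 of 4488 rose and 95 fell (54.9% lower, -0.05).

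Set directly against each other, PKCi was the lower treatment for most members. Against CSA 11 of 33 fell and 0 rose (6.49% and 7.18% of all genes), 28 were lower and 5 higher at any size (48.0% and 52.0% of all genes) and the median was -0.63 (all genes 0.03). These were Nop58, Nop16, Tsr1, Nhp2, Rrs1, Gar1, Nop2, Nolc1, Gnl3, Heatr1 and Dkc1. Against Combo 5 of 27 fell and 0 rose (4.89% and 3.98% of all genes), 24 were lower and 3 higher (47.5% and 52.4% of all genes) and the median was -0.46 (all genes 0.03). Those 5 were Nhp2, Pno1, Nop58, Tsr1 and Nop16. Between Combo and CSA 2 of 33 were lower with Combo, Rrs1 and Nop58, and 0 higher (4.45% and 6.09% of all genes). At any size 23 were lower and 10 higher with Combo (49.1% and 50.8% of all genes), with a median of -0.18 (all genes 0.01). In these comparisons 14 members reached the level with CSA and not PKCi, 8 with Combo and not PKCi, and 6 with CSA and not Combo, which fixes their direction. Among those at the level on both arrays 2 of 19 fell with PKCi against CSA (14 lower, median -0.30) and 1 of 19 with PKCi against Combo (16 lower, -0.41). With Combo against CSA 2 of 27 fell (17 lower, -0.09). Of all such genes 167 of 4372 (48.8% lower, 0.01), 115 of 4562 (46.8% lower, 0.03) and 122 of 4448 (50.4% lower, -0.01) fell, in the same order.

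Other genes of ribosome biogenesis, from 4 lists of RNA polymerase I, small subunit, large subunit and snoRNP assembly or rRNA trimming factors, were counted the same way. With anti-TCR 16 of 71 measured rose and 2 fell (median 0.30), against 11.4% and 13.9% of all genes. With PKCi 0 of 68 rose and 12 fell (-0.36), against 14.3% and 9.75%. With CSA 0 of 65 rose and 3 fell (-0.14), against 4.84% and 5.34%, a share of falls near that of all genes. With Combo 2 of 67 rose and 8 fell (-0.29), against 7.95% and 5.46%. The largest rises were Noc3l (f-suffixed; 36.6 with mock, 522 with anti-TCR, at least 9.49-fold) and Rrp15 (384 and 2502, 6.51-fold), both large subunit factors. They also had the lowest ratios of PKCi to anti-TCR, with PKCi values of 71.8 and 752. Taf1b, of the RNA polymerase I initiation factor SL1, fell 2.17-fold and the nucleolar GTPase Gnl3l 2.11-fold with anti-TCR. With CSA Polr1d fell 3.69-fold (264 to 71.5) and Lyar 2.14-fold (481 to 225), and Pop5 and Utp11 were highest at 0.63 and 0.54. With PKCi Taf1b (0.94) and Nvl (0.93) were highest.

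By list, large subunit factors gave 7 rises and 1 fall among 26 with anti-TCR (median 0.46), small subunit factors 5 and 0 among 22 (0.30), RNA polymerase I factors 2 and 1 among 8 (0.18) and snoRNP assembly and trimming factors 2 and 0 among 15 (-0.02). Of all genes measured 11.4% rose and 13.9% fell in this comparison (median -0.08). The lists of 8 and 15 genes are too short to set apart from these shares. Cytosolic ribosomal protein genes, which encode the other part of the ribosome, gave 1 rise and 0 falls among 26 with anti-TCR (median -0.30), beside the same shares. With PKCi 3 of 26 fell and 0 rose (-0.46), a share of falls near the 9.75% of all genes, and 22 were lower at any size. The difference between these lists and the nucleolar factors was not tested.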

How the data were processed

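The authors deposited 1 linear intensity per probe set and array, and these were taken without further scaling. 0 values are below 0. Within a chip type the arrays' 2% trimmed means differ by at most 0.242%, as values scaled to 1 level would. The method and software are not given in the sources used here; no detection calls were used. Of 36701 probe sets 29131 carry 1 gene symbol; the others were left out. All 46 members' gene identifiers matched the current gene table, with 0 symbols changed.

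Values under the chip median were raised to it, and log2 ratios were taken between arrays of the same chip type, for the 4 comparisons of anti-TCR with mock and of each inhibitor treatment with anti-TCR. Another 6 comparisons, of the inhibitor treatments with mock and with each other, were added after the values were seen, as were the counts with both arrays at the minimum and with no minimum. For the technical SD, log2 ratios of genes with a probe set on each of a pair of chip types were subtracted (848 pairs for anti-TCR against mock), and their root mean square was divided by the square root of 2. Marker lists covered T cells, B cells, CD8 T cells, macrophages and dendritic cells, and erythroid cells. The steps were tested on simulated data (Python 3.11.15, pandas 2.3.3).

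The members and lists were chosen with earlier results of these data known. Named are all members that reached the level, with every value for those at least 2-fold apart in a comparison or highest in their role, the 2 highest and 2 lowest of the other biogenesis genes per comparison, and Myc; other values printed, such as those of Bop1, Imp4, Ppan, Wdr12 and second probe sets, were chosen after they were seen. The 9 alternatives were 0.5 and 2 times the floor, common median, common trimmed mean and quantile scaling, averaging all probe sets of a gene, no suffixed probe sets, and a minimum of 8 or 2 times the median.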

Additional observations from a re-analysis of the deposited data

How the results depend on the processing

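No paired analysis was possible because each treatment has a single array on each chip type. In the 4 comparisons of anti-TCR with mock and of the inhibitor treatments with anti-TCR, the member medians kept their sign under the 9 alternatives, of which the 2 other floors changed no count or median and could change no call, with ranges of 0.69 to 0.86, -0.41 to -0.12 (CSA), -0.93 to -0.81 (PKCi) and -0.55 to -0.42 (Combo). Rises with anti-TCR numbered 8 to 13 and falls with PKCi 8 to 16. With 8 times the median as minimum, 20 members were measured and 8 fell with PKCi. Of 1127 single log2 ratios 1122 moved by less than the technical SD, 5 by more and 0 called ones changed sign. Among the 1127, 11 calls were gained and 6 lost. Gar1 (0.84) and Imp3 (0.86) lost their rise when all probe sets were averaged, as their dim second probe sets then count. With the same averaging Wdr43 gained a rise (1.43). Averaging left 23 members measured for anti-TCR against mock, down from 34. Rrs1, Bysl and Utp18 were then under the level, so their rises were not counted. Averaging also ended the falls of Gar1 with PKCi (-0.65) and of Ncl with CSA (-0.26), quantile normalization that of Ncl with CSA (-0.95), and median scaling that of Noc4l with Combo (-0.90).

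The small counts of the 6 added comparisons moved more. With median scaling 1 member fell with PKCi against mock, and 1 was lower and 1 higher with Combo than with CSA. With the mean of probe sets, against mock 3 rose with CSA, 0 rose and 1 fell with PKCi and 3 rose with Combo; 7 were lower with PKCi than with CSA and 1 with Combo than with CSA. Without suffixed probe sets, 0 fell with PKCi against mock, 3 were lower with PKCi than with Combo and 1 with Combo than with CSA. At 8 times the median, against mock 1 rose and 0 fell with PKCi and 3 rose with Combo; 6 were lower with PKCi than with CSA and 2 than with Combo. Fewer members are measured under the last 3 of these; otherwise the cause was not tested.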

Other observations

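Myc, whose product activates many genes of ribosome biogenesis, stayed under 4 times the chip median in every treatment, with 126 with mock, 143 with anti-TCR, 152 with CSA, 66.0 with PKCi and 192 with Combo. Its log2 ratio of anti-TCR to mock was 0.18, less than the technical SD of 0.75. Against anti-TCR it was 0.43 with Combo, less than the technical SD of 0.55, and -1.11 with PKCi, more than 1 technical SD (0.71) and less than 2.

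Combo was the highest treatment in 2 of the 35 nucleolar factors, Bop1 and Rrp1b, against 14.1% of all genes that reached the level. Bud23 and Xpo1 had the highest ratios of Combo to anti-TCR among the other genes of ribosome biogenesis. Bud23, an rRNA methyltransferase of the small subunit, read 18.1 with mock, 90.2 with anti-TCR, 139 with CSA, 149 with PKCi and 393 with Combo, 4.36-fold above anti-TCR. It reached the level with Combo alone, which fixes its direction. Xpo1, the exportin that carries both subunits out of the nucleus, read 209, 237, 180, 214 and 568 (2.40-fold). In the other direction Nsa2 fell 2.68-fold and Brix1, on an r-suffixed probe set, 2.56-fold with Combo, both factors of the large subunit. Each rests on 1 probe set and 1 array per treatment.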
